A study of Mus musculus with 6 samples.

Results

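The mu-class glutathione transferase genes Gstm1 to Gstm7 were examined in mouse liver after esculetin treatment. They were found by matching the Ensembl identifiers of the count table to gene symbols, and make up 7 of its 55357 rows. The family was chosen because Gstm1 and Gstm2 stood out in the comparison of esculetin with vehicle, so for the 7 genes its values, and counts past a threshold, are a description and not a test of the family. All 7 passed the filter on low counts, as did 14433 genes in all. C57BL/6J wild-type male mice, 8 to 9 weeks old, received either 2.5% Tween-80 alone (vehicle) or esculetin, a plant coumarin, by daily gavage for 7 days. Both groups ate a control diet with 10% of its energy as fat for 4 days and then a high-fat diet with 60% for 3 days, so the comparison is between livers that all had the fat load. The vehicle and esculetin groups each had 3 libraries, with 2 mice behind each library. The dose is uncertain: sample titles, count column names and the treatment protocol give 180 mg/kg/d, whereas the treatment field of the same samples gives 90 mg/kg/d. The study's figure legends describe liver sequencing at both doses. Library totals ran from 27957713 to 34920922 counts, with the 3 deepest in the esculetin group.

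Glutathione transferases join the tripeptide glutathione to electrophiles such as oxidized lipids, drugs and their reactive metabolites, which makes them more soluble and ready for export from the cell. The mu class acts in the cytosol as dimers, and in rodent liver it is among the enzymes known to be induced by foreign compounds through NRF2 (a sensor of electrophiles) and the nuclear receptors CAR and PXR. In mice its genes lie side by side. By GENCODE on GRCm39 the cluster spans chr3:107803137-107952210, or 149 kb, in the order Gstm5, Gstm7, Gstm6, Gstm3, Gstm2, Gstm1 and Gstm4. Gstm5 is on the plus strand and the other 6 genes are on the minus strand.

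Because the members are close copies, the coding sequences were aligned first. The stretch shown is the first 60 coding bases of Gstm1 that align to all members without a gap (bases 3 to 62 of its coding sequence, and bases 12 to 71 in Gstm5). Capitals mark the bases that differ from Gstm1, which number 9 in Gstm3, 12 in Gstm2, 14 in both Gstm4 and Gstm5, and 16 in both Gstm6 and Gstm7.
Gstm1: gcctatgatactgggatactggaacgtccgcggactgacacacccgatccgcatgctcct
Gstm3: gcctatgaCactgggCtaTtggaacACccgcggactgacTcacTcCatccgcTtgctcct
Gstm2: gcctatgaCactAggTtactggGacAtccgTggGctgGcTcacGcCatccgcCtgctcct
Gstm4: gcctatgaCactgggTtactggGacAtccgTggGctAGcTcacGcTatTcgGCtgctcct
Gstm5: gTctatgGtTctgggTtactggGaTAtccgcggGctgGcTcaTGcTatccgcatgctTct
Gstm6: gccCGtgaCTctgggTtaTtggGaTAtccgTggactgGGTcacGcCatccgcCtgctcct
Gstm7: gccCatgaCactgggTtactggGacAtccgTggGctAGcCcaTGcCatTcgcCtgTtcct

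Over the whole coding sequence, of 654 bases in 6 genes and 672 in Gstm5, Gstm3 was the closest to Gstm1 with 89.4% of aligned bases identical. Gstm2 shared 85.9% with Gstm1, Gstm6 82.9%, Gstm7 82.6%, Gstm4 80.1% and Gstm5 71.6%. Among the other pairs the lowest identity was 69.9%, between Gstm3 and Gstm5, and the highest was 86.4%, between Gstm2 and Gstm6. At the study's read length of 150 bases no stretch of any member's transcripts recurred exactly in another member's. Of the 150-base windows, 1.65% in Gstm2, 1.59% in Gstm3 and 1.52% in Gstm5 occurred in some other gene, and none in Gstm1, Gstm4, Gstm6 or Gstm7. At 50 bases the shared part was 21.9% in Gstm3, 12.4% in Gstm2, 9% in Gstm1, 8.54% in Gstm5, 8.37% in Gstm6, 0.231% in Gstm7 and 0% in Gstm4. Gstm3 and Gstm2 thus had the most sequence in common with other genes. How the counting handled reads that fit several genes is not given in the sources used here.

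The promoters were searched, on both strands, for TGACNNNGC (the core of the antioxidant response element bound by NRF2), GCGTG (the core of the element bound by the aryl hydrocarbon receptor) and TTGCNNCAA (a C/EBP motif). Those of Gstm1, the dominant member, and of Gstm2 and Gstm5, the members with a match, are printed as the 250 bases before the GENCODE transcript start, with matches in capitals.
Gstm1 promoter, chr3:107925381-107925630, minus strand: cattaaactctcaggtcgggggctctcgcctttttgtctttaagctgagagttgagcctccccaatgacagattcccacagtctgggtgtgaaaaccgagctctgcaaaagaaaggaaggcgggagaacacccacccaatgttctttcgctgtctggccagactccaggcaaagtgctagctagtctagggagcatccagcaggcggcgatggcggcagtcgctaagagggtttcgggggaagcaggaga
Gstm2 promoter, chr3:107893786-107894035, minus strand: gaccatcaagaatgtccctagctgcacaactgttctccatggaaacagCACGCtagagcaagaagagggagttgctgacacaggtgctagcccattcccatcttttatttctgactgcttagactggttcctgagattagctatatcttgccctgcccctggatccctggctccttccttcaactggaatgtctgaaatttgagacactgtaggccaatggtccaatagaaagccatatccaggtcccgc
Gstm5 promoter, chr3:107802887-107803136, plus strand: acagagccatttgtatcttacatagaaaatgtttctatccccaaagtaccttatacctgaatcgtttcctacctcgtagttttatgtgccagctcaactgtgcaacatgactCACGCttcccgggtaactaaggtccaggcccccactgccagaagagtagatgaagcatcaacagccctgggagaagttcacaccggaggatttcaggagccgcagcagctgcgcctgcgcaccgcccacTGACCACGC

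TGACNNNGC was found in 1 of the 7 promoters, that of Gstm5, in the 9 bases before the start, whereas 9.69% of 21770 promoters of protein-coding genes hold it. GCGTG was found in Gstm2 and Gstm5 against 31.2% of all promoters, and of its 2 matches in Gstm5, 1 lies inside the TGACNNNGC match. TTGCNNCAA was in none of the 7 and in 1.92% of all. The matches depend on the start used: in RefSeq windows on GRCm38.p6, 250 bases before to 50 bases after each start, GCGTG was in both windows of Gstm1 and in that of Gstm5 but not in Gstm2 (32.4% of 32851 windows). In the same windows TGACNNNGC was in Gstm5 and in 1 of 2 windows of Gstm7 (12.4% of all), and TTGCNNCAA again in none of the 12 windows of the family (2.08% of all).

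All 7 genes had higher fitted levels with esculetin, by 1.09- to 2.73-fold, while 48.5% of all tested genes did. Esculetin and vehicle libraries did not overlap for 6 of the 7, against 9.2% of all tested genes that were higher without overlap. Gstm1, Gstm2 and Gstm3 (3 of 7) were past the limits used for a call, p under 0.05 and a fold change over 1.5. The study used these limits without saying whether its p was adjusted, and unadjusted p was taken here. The 3 of 7 stand against 1.37% of all tested genes called higher and 3.13% called in either direction. These counts describe a family picked from this same comparison. The median log2 fold change was 0.52 over the 7 genes and -0.01 over all tested genes. In bulk liver, a change in the number of cells of a type and a change in RNA per cell cannot be told apart.

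Gstm1, the most abundant mu-class transferase of mouse liver (ENSMUSG00000058135, chr3:107919380-107925380), had 443.4, 350.1 and 314.1 CPM (counts per 1000000 in the library, with its total scaled by the TMM factor) in the vehicle libraries. In the esculetin libraries it had 954.6, 1179.9 and 893.4 CPM. The lowest esculetin library was thus above the highest vehicle library by 2.01-fold. The edgeR log2 fold change was 1.45 ± 0.14 (SE, n = 3 against 3), or 2.73-fold. Gstm3 (ENSMUSG00000004038, chr3:107871012-107881730), the closest copy of Gstm1, was far less abundant. It had 7.25, 11.3 and 7.73 CPM with vehicle and 20.2, 17.4 and 14.6 CPM with esculetin, with a log2 fold change of 0.99 ± 0.18. Its 3 esculetin libraries were all above its 3 vehicle libraries, and its spread on the log2 scale within groups (SD 0.27) was the widest of the family. Gstm2 (ENSMUSG00000040562, chr3:107889004-107893785) lies between Gstm3 and Gstm1 on the chromosome. It had 18.1, 17.7 and 16.9 CPM with vehicle and 28.1, 25.5 and 29.2 CPM with esculetin, a log2 fold change of 0.65 ± 0.09. The lowest esculetin library of Gstm2 was 1.41-fold above the highest vehicle library.

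Gstm4 and Gstm6 were higher by less. Gstm4 (ENSMUSG00000027890, chr3:107947721-107952210), at the other end of the cluster from Gstm5, had 23.8, 22.8 and 19.8 CPM with vehicle and 29.0, 34.5 and 31.4 CPM with esculetin (log2 fold change 0.52 ± 0.10). Gstm6 (ENSMUSG00000068762, chr3:107844454-107851103) had 49.9, 47.8 and 46.0 CPM with vehicle and 60.7, 61.3 and 67.2 CPM with esculetin (0.40 ± 0.08). Both sets of libraries were separate, with fold changes of 1.43 and 1.32 that stayed under the study's limit of 1.5. Gstm7 (ENSMUSG00000004035, chr3:107832278-107839187) was nearly level, with 31.0, 33.1 and 31.8 CPM against 36.9, 34.6 and 33.2 CPM. Its lowest esculetin library and its highest vehicle library were almost equal, and its log2 fold change was 0.13 ± 0.08. Gstm5, which is known mainly from brain and testis (ENSMUSG00000004032, chr3:107803137-107806005), was the rarest member. It had 4.12, 3.28 and 4.56 CPM with vehicle and 5.28, 4.06 and 5.79 CPM with esculetin, groups that overlapped, and its log2 fold change was 0.34 ± 0.20.

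**Figure D1:**
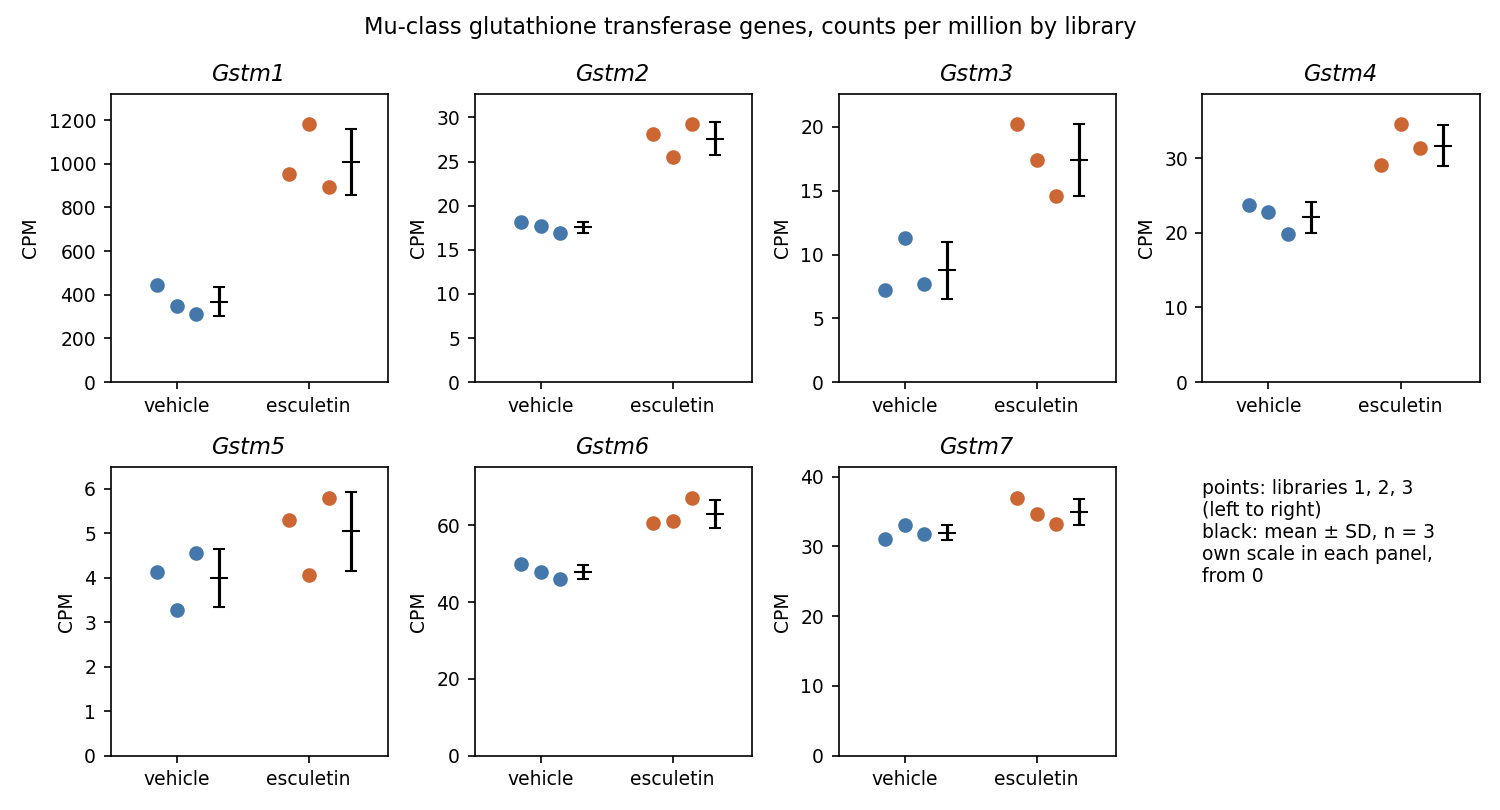
CPM (vertical axis, from 0, own scale in each panel) of the 7 genes in each vehicle and esculetin library, with mean ± SD (n = 3) in black. The groups are apart for Gstm1, Gstm2, Gstm3, Gstm4 and Gstm6, touch for Gstm7 and overlap for Gstm5.

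Within the groups the members did not share 1 order of libraries. Gstm1, Gstm2, Gstm4 and Gstm6 all had their highest vehicle value in replicate 1 and their lowest in replicate 3. Gstm3 and Gstm7 instead were highest in vehicle replicate 2 and lowest in replicate 1, and Gstm5 was highest in replicate 3. With esculetin, Gstm1 and Gstm4 were highest in replicate 2, Gstm3 and Gstm7 in replicate 1, and Gstm2, Gstm5 and Gstm6 in replicate 3.

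Most of the added family signal was Gstm1. The summed level of the 7 genes was 501 ± 69.7 CPM (SD, n = 3) with vehicle and 1189 ± 149 CPM with esculetin, a ratio of 2.37. Gstm1 accounted for 93.1% of that difference. Without Gstm1 the other 6 genes summed to 132 ± 4.83 CPM with vehicle and 180 ± 2.10 CPM with esculetin, a ratio of 1.36. The share of Gstm1 in the family's counts was 76.8%, 72.0% and 71.2% in the vehicle libraries and 84.1%, 86.9% and 83.1% in the esculetin libraries, with no overlap. Gstm6, the next in counts, had a mean share of 9.63% with vehicle and 5.37% with esculetin although its own level was higher with esculetin. Gstm3 held 1.78 ± 0.54% and 1.47 ± 0.27%, the only member whose share ranges overlapped between the groups.

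**Figure D2:**
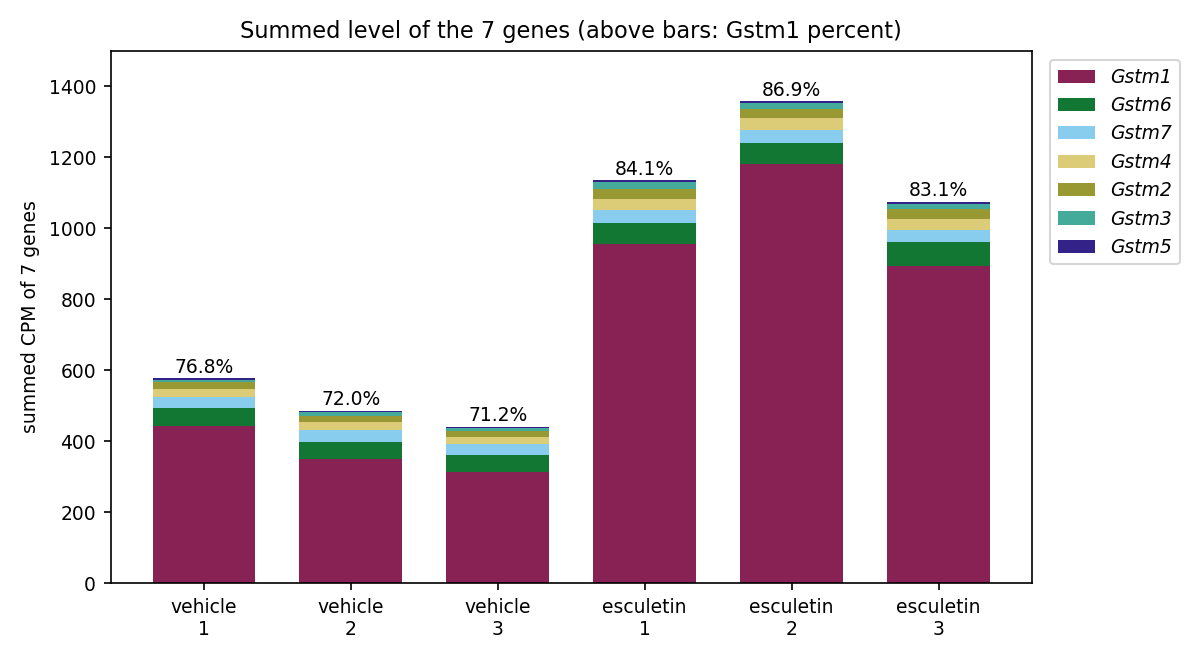
Summed CPM of the 7 genes in each library, stacked by gene, with the percent of the family's counts taken by Gstm1 above each bar. The vehicle bars reach 441 to 578 CPM and the esculetin bars 1075 to 1357 CPM, and most of the added height is Gstm1.

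To compare genes with each other, counts were divided by the union of annotated exons and scaled to TPM (transcripts per 1000000 in the library). With vehicle, Gstm1 was first at 496 ± 102 TPM (SD, n = 3), 11.5 times the next gene. Gstm6 followed at 43.2 ± 3.02, Gstm4 at 34.6 ± 4.28, Gstm2 at 31.0 ± 2.05, Gstm7 at 25.7 ± 1.19, Gstm3 at 17.0 ± 4.53 and Gstm5 at 10.5 ± 1.5 TPM. Neighbours in this order had separate ranges over the 3 libraries except Gstm4 and Gstm2, whose ranges overlapped. With esculetin the order changed at 1 place, where Gstm3 at 33.0 ± 4.41 TPM stood above Gstm7 at 27.5 ± 0.83 TPM with ranges that did not overlap. Gstm1 then was at 1325 ± 183 TPM. The lengths matter in the middle of the order: with the longest transcript as length, Gstm2 (35.03 TPM) and Gstm7 (29.8 TPM) both stood above Gstm4 (27.6 TPM) with vehicle, the ranges of Gstm7 and Gstm4 overlapping, while Gstm1, Gstm6, Gstm3 and Gstm5 kept their places. With esculetin and that length, Gstm7 (31.9 TPM) and Gstm3 (31.5 TPM) had overlapping ranges, so the exchange of their places was not seen.

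Among 24 soluble glutathione transferase genes, the kappa-class Gstk1 of mitochondria and peroxisomes included, Gstm1 had rank 3 by TPM with vehicle and rank 2 with esculetin. Gstp1, the pi-class enzyme abundant in male mouse liver, was first in both groups at 2539 ± 223 and 2198 ± 415 TPM, and the alpha-class Gsta3 was at 825 ± 220 and 1046 ± 118 TPM. The 7 mu-class genes made up 13.8% of the summed TPM of these 24 genes with vehicle and 27.0% with esculetin. Among all genes Gstm1 ranked 227 with vehicle and 94 with esculetin.

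**Figure D3:**
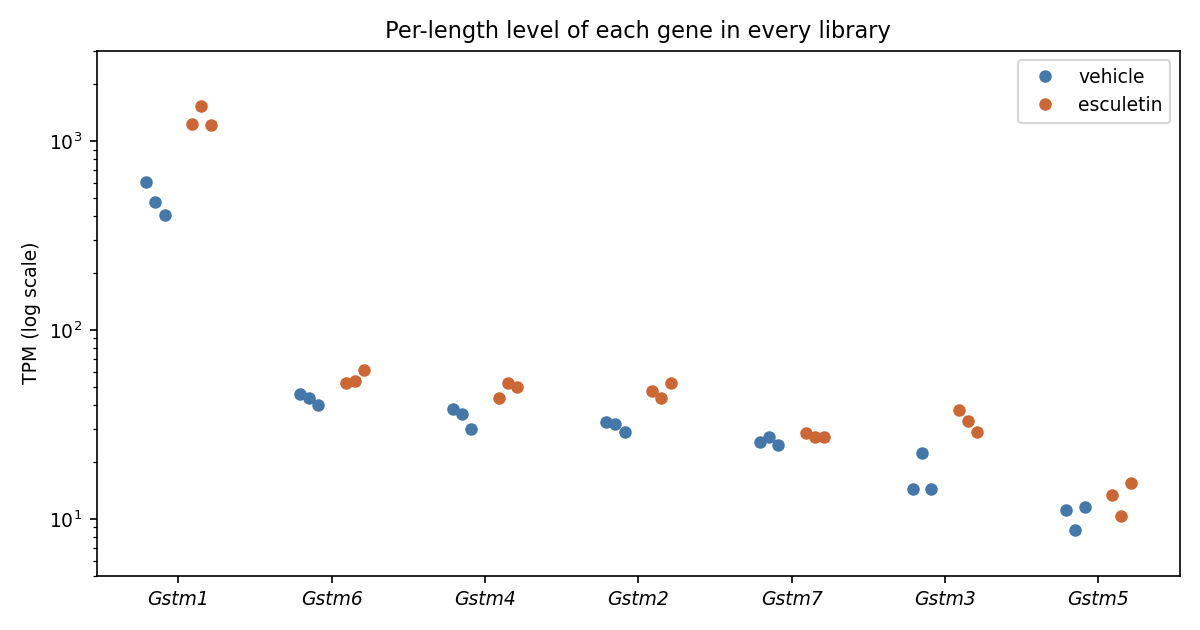
TPM (log scale) of each gene in the 3 vehicle and 3 esculetin libraries, in the order of the vehicle means. Gstm1 is at 405 TPM or more in every library, and all other members lie between 8.75 and 61.4 TPM.

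Genes next to the cluster lay mostly around 0. Within 500 kb, 54 other genes are in the table and 15 were tested, 13 of them protein-coding. Their median log2 fold change was -0.04, their range -1.31 to 0.11, and 5 of the 15 were above 0. The nearest tested genes outside the cluster were Csf1, a macrophage growth factor 135 kb before it (-0.03 ± 0.23), and Ampd2, an AMP deaminase 29.2 kb after it (0.11 ± 0.13). The only tested gene within the cluster was 4933431E20Rik, a non-coding RNA that overlaps Gstm5 on the opposite strand (0.02 ± 0.39). Since the strand setting of the counting is not stated, reads of that RNA and Gstm5 may not have been told apart. Neighbours called numbered 2 and both fell, as did 1.76% of all tested genes. Sort1, the sorting receptor sortilin, 239 kb after the cluster, went from 27.9 ± 4.11 to 17.3 ± 1.31 CPM (log2 fold change -0.69 ± 0.12, edgeR adjusted p = 0.13). The non-coding Gm12500, which overlaps Ampd2, had 9, 20 and 18 counts with vehicle and 8, 7 and 6 with esculetin (-1.31 ± 0.49, edgeR adjusted p = 0.34), and was tested only because of its level with vehicle. The call on Gm12500 was lost in 5 of 12 alternative fits, among them those without vehicle replicate 2 or 3 or esculetin replicate 2 or 3.

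**Figure D4:**
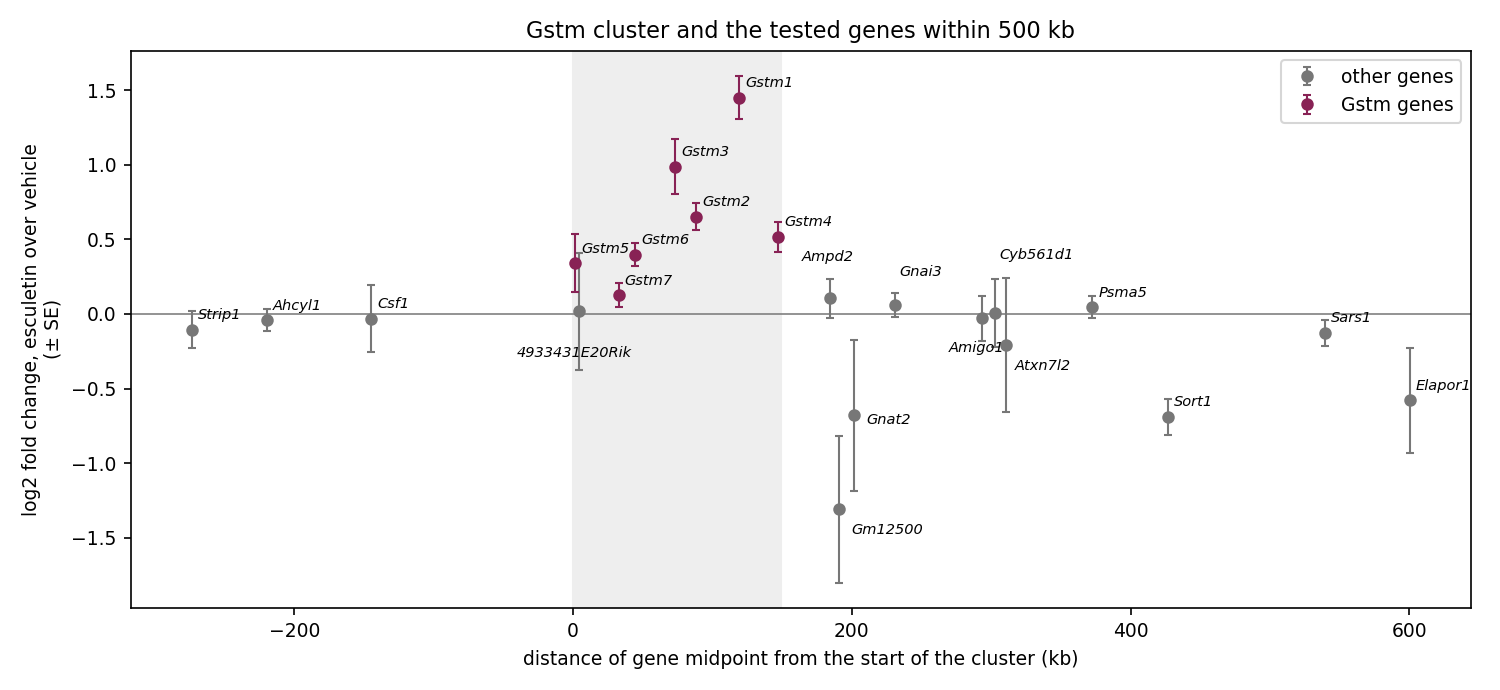
Log2 fold change (esculetin over vehicle, ± SE) of the 7 Gstm genes and the 15 other tested genes within 500 kb, against the distance of each gene's midpoint from the start of the cluster (grey band). The Gstm genes lie between 0.13 and 1.45, the other genes between -1.31 and 0.11.

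The genes that work with the family were taken from 8 lists with 106 genes in all. The lists were chosen with earlier results of these data known, so counts from them are a description and not a test. Of the 95 tested, 12 rose and 1 fell at the limits for a call (13.7%, against 3.13% of all tested genes). At p under 0.05 without a fold limit, 37 were higher and 2 lower, or 41.1% against 11.9% of all tested genes. The median log2 fold change was 0.14. With at least 10 counts required in every library 10 were called, since Cyp2b10, Cyp2b9 and Dpep1 were then not tested. Of all genes then tested 2.86% were called. No gene of the lists reached an adjusted p of 0.05 with edgeR, the smallest being 0.077 for Abcc3. Over all genes 6 did. P-values here measure only the spread between libraries of pooled livers.

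Of the other transferase classes, 4 of 13 tested genes rose and none fell at the limits for a call, with a median of 0.30. Of all tested genes 1.37% were called higher. At p under 0.05 without a fold limit 9 of the 13 were higher and none lower, against 11.9% of all tested genes in either direction. The alpha-class Gsta2 went from 5.35 ± 2.40 to 15.1 ± 4.56 CPM (2.83-fold) and Gsta4, which prefers the lipid aldehyde 4-hydroxynonenal, from 35.8 ± 8.15 to 56.3 ± 4.15 CPM (0.65 ± 0.14). The theta-class Gstt3 went from 10.8 ± 6.45 to 23.7 ± 1.75 CPM (1.13 ± 0.32) and Gstt2 from 21.4 ± 3.52 to 38.2 ± 7.96 CPM (0.84 ± 0.16). These 4 genes had esculetin libraries all above their vehicle libraries, with edgeR adjusted p of 0.13 to 0.24. Gsta2 has near-identical copies, Gsta1 and Gsta13, too low to be tested, so its counts are uncertain. The call on Gsta4 was lost without vehicle replicate 2 or 3. Among membrane-bound relatives 2 of 4 tested were higher and none lower at p under 0.05. Past the fold limit as well was 1, Mgst3, from 3.71 ± 1.48 to 6.44 ± 0.49 CPM (0.79 ± 0.26, edgeR adjusted p = 0.28), a call lost without vehicle replicate 3.

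Genes that supply glutathione showed no call. Of 11 tested genes of glutathione synthesis and recycling 7 were above 0, against 48.5% of all tested genes, with a median of 0.06. At p under 0.05, 2 were higher and none lower, against 11.9% of all tested genes in either direction. The subunits of glutamate-cysteine ligase, the first enzyme of synthesis, had log2 fold changes of 0.06 ± 0.12 (Gclc) and -0.01 ± 0.08 (Gclm). The smallest p in the list was that of Glrx, a glutaredoxin, at 0.35 ± 0.13 (edgeR adjusted p = 0.36). Among 15 genes that export conjugates or turn them into mercapturates, 2 were higher and 1 lower at p under 0.05. The 2 higher genes passed the fold limit as well. Abcc3, an exporter in the basolateral hepatocyte membrane, had 110, 74.6 and 66.1 CPM with vehicle and 160, 208 and 195 CPM with esculetin (1.17 ± 0.18, adjusted p = 0.077 from edgeR). Dpep1, a dipeptidase, had 10, 8 and 4 counts with vehicle and 14, 30 and 16 with esculetin (1.26 ± 0.50). It was tested only because of its level with esculetin, and lost its call in 5 of 12 alternative fits, among them those without vehicle replicate 2 or 3 or esculetin replicate 2. The canalicular exporter Abcc2 was at 601 ± 8.88 and 606 ± 46.6 CPM (0.01 ± 0.08).

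Of 18 NRF2 targets outside glutathione metabolism 17 were above 0, against 48.5% of all tested genes, and their median was 0.27. At p under 0.05 were 9, against 11.9% of all tested genes, and only 1 passed the fold limit as well. That was Nqo1, a quinone reductase, which had 4.46, 2.64 and 2.19 CPM with vehicle and 7.02, 9.65 and 7.34 CPM with esculetin (1.37 ± 0.26, edgeR adjusted p = 0.13). Of 14 CAR and PXR targets, 8 were higher and 1 lower at p under 0.05, against the same 11.9%. Of these, 2 rose and 1 fell past the fold limit as well, and the median over the 14 was 0.35. Among those that stayed under the fold limit, Por, the reductase that supplies cytochromes P450 with electrons, was at 203.3 ± 24.9 CPM with vehicle and 289.6 ± 15.8 CPM with esculetin (0.51 ± 0.10) and Cyp2c54 at 185.0 ± 34.8 and 249.4 ± 5.76 CPM (0.43 ± 0.12). Cyp3a11, the usual marker of PXR activity in mice, was at 681 ± 200 and 618 ± 282 CPM with groups that overlapped (-0.14 ± 0.31), as did those of Cyp2c29 (0.33 ± 0.19). Cyp2b10, the usual marker of CAR activity, had 4, 8 and 2 counts with vehicle and 31, 48 and 24 with esculetin (2.69 ± 0.51), and Cyp2b9 had 6, 0 and 4 counts against 50, 22 and 88 (3.78 ± 0.78, and 4.49 without vehicle replicate 1 or 3.16 without vehicle replicate 2). Both belong to a family of close copies and are rare here, tested only because of their level with esculetin, at most 1.38 and 2.63 CPM. Cyp2c55 fell, from 1.54 ± 0.76 to 0.80 ± 0.11 CPM (-0.94 ± 0.39), and this call was lost in 5 of 13 alternative fits, among them those without vehicle replicate 2 or any 1 of the esculetin libraries. Of 6 aryl hydrocarbon receptor targets Nqo1 alone rose. Cyp1a1, the classical target of that receptor, was at 0.91 ± 0.39 and 1.10 ± 0.35 CPM (0.26 ± 0.40).

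Among 15 regulators of transferase genes 5 were higher and none lower at p under 0.05, against 11.9% of all tested genes in either direction. Of the 5, 2 were past the fold limit, and the median over the 15 was 0.11. Cebpb, the transcription factor C/EBPβ, went from 30.2 ± 5.35 to 45.8 ± 7.01 CPM (0.60 ± 0.14, edgeR adjusted p = 0.18) and Maff, a small Maf partner of NRF2, from 4.48 ± 1.93 to 8.00 ± 2.32 CPM with groups that overlapped (0.83 ± 0.32). The call on Cebpb was lost with total-count scaling and without vehicle replicate 1 or esculetin replicate 1, and that on Maff without vehicle replicate 1 or 3 or esculetin replicate 1 or 3. The other 3 stayed under the fold limit, with groups that did not overlap. They were Nr1i2, which encodes PXR (0.30 ± 0.07), Nr1i3, which encodes CAR (0.39 ± 0.14), and Keap1, which holds NRF2 back (0.25 ± 0.10). The p of Nr1i3 was over 0.05 in 3 and that of Keap1 in 4 of 13 alternative fits. Nfe2l2, which encodes NRF2, overlapped between groups (-0.25 ± 0.15).

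Gstm1's pattern over the 6 libraries was compared with that of 12169 genes with a mean of at least 1 CPM, as the root mean square difference between centred log2(CPM + 1) values. The 5 closest genes outside the family were Nqo1 (0.17), Abcc3 (0.19), Cyp2a5 (0.20), Gdf15 (0.22) and the pseudogene Gm8834 (0.27). Such a measure favours genes that differ between the groups by a similar amount on the log2(CPM + 1) scale, on which the change of a gene near 1 CPM is understated. Nqo1, Abcc3 and Gm8834 were, like Gstm1, highest in vehicle replicate 1, lowest in vehicle replicate 3 and highest with esculetin in replicate 2. The genes were picked as closest over these same libraries, so a shared order is in part built into the choice. Cyp2a5, a cytochrome P450 that hydroxylates coumarin, had 422, 342 and 373 CPM with vehicle and 1336, 1333 and 1137 CPM with esculetin. Gdf15, a stress-induced hormone, had 0.48, 0.43 and 0.47 CPM with vehicle and 2.18, 2.71 and 1.73 CPM with esculetin. Its fitted log2 fold change of 2.25 ± 0.31 was above the 1.45 of Gstm1. Gdf15 and Gm8834 had means under 1 CPM with vehicle (0.46 and 0.84 CPM) and reached the minimum only through the esculetin libraries. Within the family Gstm3 was nearest to Gstm1 (0.40, rank 16), then Gstm2 (0.47, rank 38), Gstm4 (0.49), Gstm6 (0.57), Gstm5 (0.67) and Gstm7 (0.70).

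**Figure D5:**
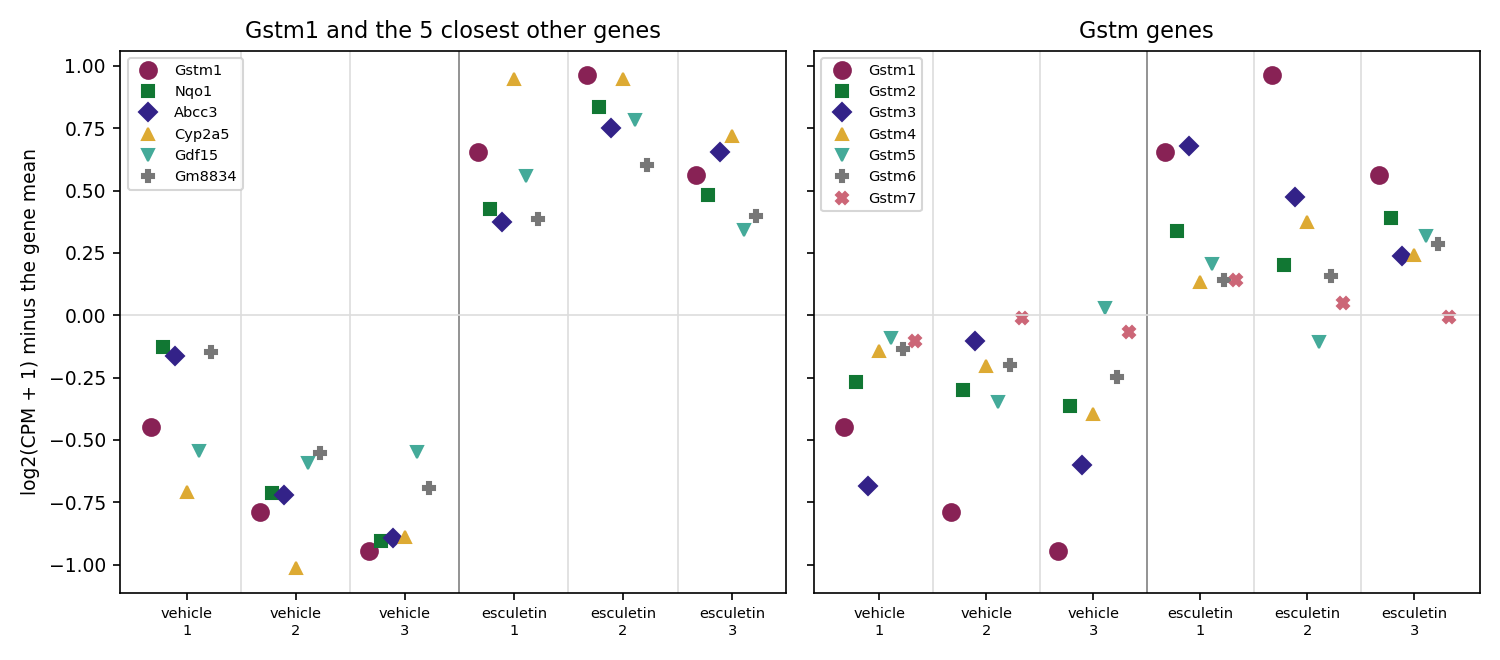
Log2(CPM + 1) minus each gene's own mean in the 6 libraries, for Gstm1 with the 5 closest other genes (left) and for the 7 Gstm genes (right). Nqo1 and Abcc3 lie near Gstm1 in every library, while Gstm7 stays within 0.15 of 0.

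Pseudogene copies of the family were counted as rows of their own, and these were looked at after their values were seen. Gstm2-ps1, a processed pseudogene on chr5:116770967-116771623, had 147, 79 and 75 counts with vehicle and 225, 288 and 244 with esculetin (log2 fold change 1.15 ± 0.25). In spite of its name it matched Gstm1 best, with 643 of its 657 bases identical (97.9%), against 89.0% for Gstm3 and 84.8% for Gstm2. Its counts were 0.69 to 1.13% of those of Gstm1 in every library. Gm8834, a processed pseudogene on chr10:34774252-34774816, shared windows of 150 bases with Gstm3 (1.59% of those of Gstm3) and windows of 50 bases with Gstm3 (10.3%), Gstm1 (2.44%) and Gstm6 (0.56%). It had 37, 23 and 15 counts with vehicle and 73, 97 and 77 with esculetin (1.55 ± 0.33). Its counts were 0.17 to 0.28% of those of Gstm1. Gm6665, a pseudogene that shared 12.4% of the 50-base windows of Gstm2, had 16, 42 and 15 counts with vehicle and a log2 fold change of 0.02 ± 0.43. Whether reads on these rows came from the family's transcripts was not tested.

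Of 61 cell type markers tested 6 were called (9.84%), 4 higher and 2 lower, against 3.13% of all tested genes. With at least 10 counts required in every library 4 of 58 were called (6.9%, against 2.86% of all genes then tested), since Cd79a and Cfd were not tested. Of 7 hepatocyte and 12 periportal markers none was called, and of 12 pericentral markers, the zone in which many drug-metabolizing enzymes are made, only Axin2 was, at a lower level (-0.87 ± 0.21, edgeR adjusted p = 0.17). The pericentral Glul and Cyp2e1 had log2 fold changes of -0.15 ± 0.09 and 0.18 ± 0.10, and the periportal Cyp2f2 of -0.10 ± 0.10. The pericentral Lhpp (0.45 ± 0.18) was higher and Lgr5 (-0.48 ± 0.20) and the periportal Cdh1 (-0.40 ± 0.14) lower at an unadjusted edgeR p under 0.05 but under the fold limit. The medians were -0.02 over pericentral and 0.11 over periportal markers. Summed hepatocyte markers were at 92524 to 97764 CPM with vehicle and 86111 to 96251 CPM with esculetin. No Kupffer cell (6) or endothelial marker (5) was called, 1 of 5 stellate cell markers was higher (Des), 1 of 5 cholangiocyte markers lower (Spp1), and 1 of 4 tested lymphocyte and 1 of 5 erythroid markers higher (Cd79a and Hba-a2). The erythroid Alas2 was lower without overlap at p under 0.05 but under the fold limit (-0.24 ± 0.07). Summed cholangiocyte markers spanned 39.5 to 80.3 CPM with vehicle and 30.3 to 45.6 CPM with esculetin, most of it Spp1. The other 4 cholangiocyte markers summed to 4.80 to 5.03 CPM with vehicle and 4.95 to 6.62 CPM with esculetin, had log2 fold changes of 0.06 to 0.63 with groups that overlapped, and none was called. The median over the 5 was 0.24. All 5 pancreatic acinar markers were at 0 in every library. Adipocyte markers summed to at most 0.61 CPM with vehicle and to 0.89 to 1.19 CPM with esculetin, most of it Cfd (1.72 ± 0.72, called higher, and 2.85 without vehicle replicate 1). Cfd had 18, 8 and 0 counts with vehicle against 36, 24 and 36 with esculetin, and was tested only because of its level with esculetin. The calls on Des (without esculetin replicate 2), Spp1 (vehicle replicate 3 or esculetin replicate 2), Cd79a (vehicle replicate 1 or 2 or esculetin replicate 1 or 2), Hba-a2 (any vehicle replicate or esculetin replicate 1) and Cfd (vehicle replicate 2 or 3 or esculetin replicate 1 or 3) were lost when that library was left out. The calls on Cd79a and Hba-a2 were also lost with limma-voom and with the replicate block. The part of all these cell types in the family's values was not tested.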

How the data were processed

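Liver RNA of 3 vehicle and 3 esculetin libraries was sequenced by the study as 150-bp paired-end reads after NEBNext Ultra library preparation. Per the labels and the study's methods, HISAT2 2.2.1 mapped reads to GRCm39 and featureCounts assigned them to genes; the annotation release, strand setting and handling of multi-mapping reads are not given in the sources used here. The values used are the raw counts per gene as deposited by the authors. Column names were matched to sample titles by group and number. Libraries of a group differed by more than sampling noise.

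Symbols, positions and exon lengths came from GENCODE vM39. Counts were tested with edgeR 4.0.16 in R 4.3.3 (TMM factors of 0.979 to 1.022, filterByExpr, quasi-likelihood test, group only), with Benjamini-Hochberg adjustment over 14433 genes. A gene was called at unadjusted p under 0.05 and fold change over 1.5. The study used limma with these limits and does not say whether its p was adjusted; unadjusted p is a choice made here, on which every call rests. SE was derived from each log2 fold change and its F statistic. The steps were tested on simulated data. Coding sequences were aligned with Biopython 1.88. A comparison of proteins was not made here.

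The members and gene lists were chosen with earlier results of these data known. Named genes were the 7 members, the called genes of each list (or that with the smallest p), Glul, Cyp2e1 and Cyp2f2, the nearest and the called neighbours within 500 kb, and the 5 genes closest to Gstm1. Other genes named as examples (Gstp1, Gsta3, Lhpp, Lgr5, Cdh1, Gclc, Gclm, Abcc2, Cyp1a1, Por, Cyp2c54, Cyp3a11, Cyp2c29, Nr1i2, Nr1i3, Keap1, Nfe2l2, Alas2 and pseudogenes) were chosen after their values were seen. Alternatives were DESeq2 1.42.0, limma-voom 3.58.1, other scalings, filters and fold limits, a replicate block, each library left out, transcript length and window length. The count of 3 that a 0 allows was at most 0.109 CPM per library and covers counting error only.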

Additional observations from a re-analysis of the deposited data

How the results depend on the processing

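Gstm1, Gstm2 and Gstm3 were the called members in all 13 alternative fits, and each of the 7 log2 fold changes was above 0 in 13 of 13, from 1.32 to 1.6 for Gstm1 and from 0.09 to 0.16 for Gstm7 over the fits without 1 library. These fits reuse the libraries on which the family was chosen, so they describe the effect of the processing and are not a test of the members. Without a fold limit 5 members, 39 pathway genes and 1711 genes in all passed; with a fold limit of 2 these were 1, 7 and 217. Without a filter 776 genes were called, and 411 to 588 without 1 library, against 452. Genes with adjusted p under 0.05 numbered 6 with edgeR, 193 with DESeq2, 477 without a filter, 15 with the replicate block and 2 to 45 without 1 library (45 without vehicle replicate 1, 15 without vehicle replicate 3, 2 without vehicle replicate 2); the cause was not tested. The replicate block gave 399 calls. Same-numbered libraries had correlations of deviations of -0.11, -0.03 and 0.02, and over all pairs these ran from -0.11 to 0.09. Deviations centred within groups of 3 libraries cannot show whether the numbers pair them. Higher genes were 43.8% of the calls and 34.9 to 49.7% without 1 library; total-count scaling gave 38.9% and a median shift of -0.03. With the longest transcript as length 4 of 7 members kept their place by level with vehicle and 3 of 7 with esculetin, where Gstm3 no longer stood above Gstm7, and Gstm2 was at 35.03, Gstm4 at 27.6 and Gstm7 at 29.8 TPM with vehicle. Exact sharing of Gstm1 windows was 0% at 150, 1.90% at 100 and 9.004% at 50 bases. Exact sharing is a measure of the annotation, not of the reads.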
